A study of Mus musculus with 6 samples.

Results

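The flavin monooxygenase (Fmo) and alcohol dehydrogenase (Adh) genes were followed in hepatocytes of adult mice that had been sorted by the activity of the Axin2 promoter. The members were the rows of the deposited count table with the symbols Fmo1, Fmo2, Fmo4, Fmo5, Adh1, Adh4, Adh5, Adh7 and Adh6-ps1, which makes 9 of 17275 genes, 4 of them Fmo and 5 of them Adh genes. All 9 passed the default expression filter of edgeR, so no member was lost to low counts. Other genes of both families were not analysed here.

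Each group had 3 RNA-seq libraries. The Axin2-positive group held GFP-positive hepatocytes and the Axin2-negative group GFP-negative hepatocytes. All 6 libraries came from C57BL/6 mice of the genotype Axin2rtTA;TetO-H2B-GFP, aged 63 days, which had taken doxycycline with their drinking water for 7 days. An age of 8 weeks is also given for all 6 libraries. In these mice the Axin2 promoter drives a doxycycline-dependent activator, which switches on a green fluorescent histone, so GFP reports Axin2 promoter activity during the treatment and not the Axin2 protein. Non-parenchymal cells were removed before the sort. Libraries are numbered 1, 2 and 3 by their sequencing index, and each index occurs once in each group. Whether the libraries stem from separate mice is not stated in the labels, though the sex-linked genes given below set replicate 2 apart. P-values therefore measure the spread between these libraries, which may be partly technical.

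Flavin monooxygenases are enzymes of the endoplasmic reticulum that use NADPH and oxygen to oxidise nitrogen and sulfur atoms of drugs, dietary amines and other foreign compounds. Alcohol dehydrogenases are zinc enzymes of the cytosol that oxidise alcohols, among them ethanol and retinol, to aldehydes with NAD. Both belong to the first phase of xenobiotic metabolism in the liver, which varies along the lobule from the portal to the central vein. Axin2 is a target of Wnt/β-catenin signalling, which is active in hepatocytes next to the central vein.

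The Adh genes lie in 1 cluster on mouse chromosome 3, all on the plus strand (GRCm38, GENCODE annotation). In order along the chromosome they are Adh7 (138217760 to 138233382), Adh1 (138260991 to 138290698), Adh6-ps1 (138374121 to 138395002), Adh4 (138415466 to 138430892) and Adh5 (138443093 to 138455499). Fmo5 lies alone on the same chromosome (97628804 to 97655282, plus strand). On chromosome 1, Fmo4 (162793188 to 162813972), Fmo1 (162829561 to 162866610) and Fmo2 (162874317 to 162898726) follow each other on the minus strand, with gaps of 15.6 kb and 7.71 kb. All are annotated as protein-coding except Adh6-ps1, a transcribed pseudogene. Exons of Adh1 and Adh7 overlap antisense genes, Gm16559 by up to 88 bases and 0610031O16Rik by up to 108 bases. Whether strand was used in the counting is not given in the sources used here. Without that setting, reads of these overlaps cannot be assigned here, although the library preparation was stranded. Gm16559 had no row of its own in the count table.

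The upstream sequences of the neighbouring genes Adh4 and Adh5 are shown because the genes differed in how much they varied between libraries. Adh5 varied least of all members and Adh4 considerably more, although only 12.2 kb separate them. The sequences are from RefSeq (GRCm38.p6), plus strand, from 250 bases before the RefSeq start site and ending before the first annotated base of the gene, with each CG dinucleotide in capitals.
Adh4 at chr3:138415247-138415455: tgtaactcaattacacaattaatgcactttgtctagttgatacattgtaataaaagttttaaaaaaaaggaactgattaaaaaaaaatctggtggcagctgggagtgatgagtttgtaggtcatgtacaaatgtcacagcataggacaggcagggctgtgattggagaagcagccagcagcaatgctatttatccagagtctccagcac
Adh5 at chr3:138442843-138443092: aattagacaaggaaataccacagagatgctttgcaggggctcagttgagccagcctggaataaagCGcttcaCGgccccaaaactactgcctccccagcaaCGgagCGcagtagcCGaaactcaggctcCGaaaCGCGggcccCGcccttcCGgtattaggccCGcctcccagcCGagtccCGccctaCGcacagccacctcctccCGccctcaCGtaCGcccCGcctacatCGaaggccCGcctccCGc

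The Adh5 stretch held 21 CG dinucleotides at a GC content of 63.6%. The Adh4 stretch held 0 at 38.8%. Adh5 has another RefSeq start farther upstream, whose window is less rich in GC (47% over its 300 bases). RefSeq promoter windows run from 250 bases before to 50 bases after a start site. They were at hand for 7 of the 9 members (9 windows, with no entry for Fmo1 and Adh6-ps1). The window of the Adh5 start shown held 26 CG dinucleotides, and 16.9% of all windows held at least 26. Over all windows the median was 7 CG dinucleotides, and the median GC content was 52.7%. Windows of the other members held 10 (Fmo5), 6 (Adh1), 5 (both windows of Fmo2), 4 (Fmo4) and 3 (Adh7). Adh1 spanned 1.33 and 1.32 times within the Axin2-positive and Axin2-negative groups, and Fmo5 3.65 and 1.98 times. The pair shown was picked by its spread, and a link between CG content and the spread of a gene between libraries was not tested. The letters CTTTGAT, a core site of the Wnt-linked TCF factors, were searched on both strands and occurred in 0 of these 9 windows and in 3.73% of all 32851 windows. The shorter core CTTTG, which CTTTGAT contains, occurred in 5 of the 9 and in 53.9% of all windows. TATAAA occurred in 3 of the 9 and in 13.6% of all windows, and CCAAT in 4 of the 9 and in 37.4% of all windows. Of the other letters searched, the HNF1 motif, CAAAGTCCA (HNF4A), TTGCGCAA (C/EBP), TGACGTCA (CREB) and TGACNNNGC (antioxidant element) occurred in 0 of the 9, and in 0.00913%, 0.475%, 0.183%, 1.79% and 12.4% of all windows. These matches describe the letters only.

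Levels of different genes were compared per length, as reads scaled by library size and TMM factor (CPM) per kilobase of the RefSeq transcript with the highest FPKM in the authors' deposited table. Adh1, the class I enzyme that oxidises ethanol and retinol in liver, stood far above the others, with 991 to 1560 CPM per kilobase over the libraries of both groups. Adh5, the class III enzyme that clears formaldehyde bound to glutathione, followed with 194 to 250.5 CPM per kilobase. Fmo1, Adh4 and Fmo5 had medians of 131, 122 and 120 CPM per kilobase, and their ranges overlapped each other, so their order is not settled. The ranges of Adh4 and Fmo5 also reached that of Adh5. Below them, Adh6-ps1 (median 7.02), Fmo4 (6.63), Fmo2 (4.85) and Adh7 (3.01 CPM per kilobase) overlapped as well. The lowest Fmo1 value, 60.5 CPM per kilobase, lay below every value of Adh1, Adh5, Adh4 and Fmo5. It was still above 22.1 CPM per kilobase, the highest Adh6-ps1 value and the highest among these low genes. The library totals lay between 77994792 and 103386648 reads in the Axin2-positive group and between 75882611 and 101814611 reads in the Axin2-negative group. Raw reads of a member in a library ran as low as 30, for Fmo2 in the library Axin2-positive 2.

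**Figure D1:**
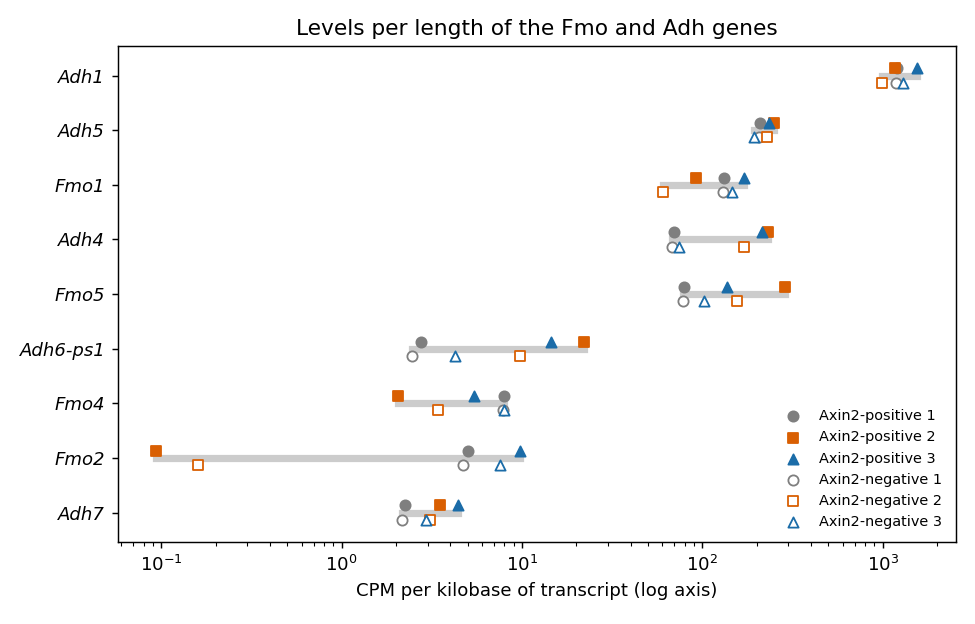
Levels of the 9 genes in CPM per kilobase of transcript on a log axis, with filled symbols for Axin2-positive and open symbols for Axin2-negative libraries, and a grey bar over the range of all 6. Adh1 lies highest at 991 to 1560, Adh5 is the narrowest, and Fmo2 has the widest range because both libraries of replicate 2 lie below 0.2.

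The labels were checked with the sorted gene and with known markers of the central and portal zones. For Axin2 itself, Axin2-positive libraries 1, 2 and 3 gave 2.40, 22.6 and 24.2 CPM. Axin2-negative libraries 1, 2 and 3 gave 3.04, 3.75 and 5.75 CPM. Replicate 1 thus went against its labels, since the library labelled Axin2-positive 1 lay below its partner, and every direction that includes it carries this limit. Pericentral markers, all 10 tested, summed to 2087, 15127 and 16131 CPM in the Axin2-positive libraries, against 2083, 3675 and 5175 CPM in the Axin2-negative libraries. Periportal markers, all 10 tested, summed to 6486, 2047 and 3558 CPM in the Axin2-positive libraries, against 6584, 8258 and 9009 CPM in the Axin2-negative libraries. The zones were thus apart in replicates 2 and 3 and not in replicate 1. Over 12236 genes with at least 20 reads in the pair, the 2 libraries of replicate 1 differed by 2.56 times the variance that counting alone gives. For the other pairs of libraries, within a replicate or within a group, this ratio lay between 20.7 and 52.8. The libraries of replicate 1 were therefore nearly alike, and differences of the members in replicate 1 were small.

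Libraries also differed by replicate number. The Y-linked gene Ddx3y had 7164 and 6759 reads in the libraries Axin2-positive 2 and Axin2-negative 2 and at most 3 reads in the other 4 libraries, while Xist had 4 and 5 reads in replicate 2 and at least 32242 elsewhere. Replicate 2 is therefore male by these genes and replicates 1 and 3 are female. Replicate 2 thus did not stem from the same animals as replicates 1 and 3, and the spread between libraries includes differences between animals. With a single male replicate, sex and replicate number cannot be told apart. Hepatocyte genes (7 of 8 listed genes in the table, 7 tested) summed to between 93953 and 185581 CPM in the Axin2-positive group and between 89176 and 183719 CPM in the Axin2-negative group. Endothelial markers, 10 of 10 tested, summed to between 1.93 and 53.7 CPM in the Axin2-positive group, against 5.43 to 74.6 CPM in the Axin2-negative group. Kupffer cell markers, 7 of 10 tested, gave 0.380 to 4.12 CPM in the Axin2-positive group and 3.18 to 27.5 CPM in the Axin2-negative group. Stellate cell and fibroblast markers, 3 of 10 tested, gave 0.253 to 4.97 CPM in the Axin2-positive group and 0.958 to 5.73 CPM in the Axin2-negative group. Bile duct markers, 4 of 10 tested, gave 17.7 to 48.4 CPM in the Axin2-positive group and 27.9 to 48.1 CPM in the Axin2-negative group. Each of these sums takes in every listed gene found in the table, also those that were not tested. None of the listed markers found in the table was at 0 in all 6 libraries. The part of these cells in the members' values was not tested.

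Over all 6 libraries, Adh6-ps1 and Adh4 had the largest log2 fold changes among the members. This order did not hold in every replicate or fit. In replicate 2 the differences of Fmo5, Fmo4, Fmo2 and Fmo1 were larger in size than that of Adh4, and without the library Axin2-positive 2 the value of Fmo2 (0.83) was above those of Adh6-ps1 (0.64) and Adh4 (0.44). Adh6-ps1, a transcribed pseudogene of the cluster, had 7.70, 61.7 and 40.3 CPM in the Axin2-positive libraries, against 6.89, 27.3 and 11.9 CPM in the Axin2-negative libraries, each time in the order 1, 2, 3. It was higher in the Axin2-positive library of each replicate, by 1.12, 2.26 and 3.39 times, yet the groups overlapped because replicate 1 was low in both. Its log2 fold change over all 6 libraries was 1.25 (SE 0.82; edgeR quasi-likelihood test, adjusted p = 0.999). Adh4, the class II enzyme, which acts on retinol and longer alcohols, had 91.6, 303 and 281 CPM in the Axin2-positive libraries, against 88.7, 225 and 97.1 CPM in the Axin2-negative libraries. Here too each replicate was higher in its Axin2-positive library, and replicate 3 carried most of the difference, with a ratio of 2.89 against 1.03 in replicate 1 and 1.35 in replicate 2. The log2 fold change of Adh4 was 0.72 (SE 0.56) and did not pass the test.

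The annotated transcripts of the members were compared for shared sequence. Of 3007 different stretches of 50 bases in the transcripts of Adh6-ps1, 4 also occur in Adh1 and none in another member. Per 100 Adh1 reads, Adh6-ps1 had 0.430, 3.52 and 1.73 reads in the Axin2-positive libraries, against 0.387, 1.84 and 0.611 in the Axin2-negative libraries. The ratio was higher in the Axin2-positive library of each replicate and lowest in replicate 1. No other pair of members shared such a stretch. Counting all other genes, Adh6-ps1 shared 3.86% of its stretches with 107 genes and Fmo1 7.02% with 26. The part of shared sequence in the counts was not tested.

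Adh1 and Adh5, the most abundant Adh genes, differed by at most 1.21 times in each replicate. Adh1 had 1789, 1754 and 2327 CPM in the Axin2-positive libraries, against 1781, 1479 and 1945 CPM in the Axin2-negative libraries. Its 3 ratios were 1.005, 1.19 and 1.20, and the groups overlapped. Adh5 had 337, 402 and 375 CPM in the Axin2-positive libraries, against 329, 366 and 311 CPM in the Axin2-negative libraries. Within the Axin2-positive group the highest library was 1.19 times the lowest, and within the Axin2-negative group 1.18 times, the narrowest spans of the 9 members. Log2 fold changes were 0.17 (SE 0.19) for Adh1 and 0.15 (SE 0.13) for Adh5, neither past the test. Adh7, the class IV retinol dehydrogenase known from stomach and other epithelia, was rare, with 7.71, 12.01 and 15.2 CPM in the Axin2-positive libraries, against 7.44, 10.6 and 10.1 CPM in the Axin2-negative libraries. It too was higher in each Axin2-positive partner, and its log2 fold change of 0.31 (SE 0.28) did not pass. The antisense gene 0610031O16Rik, which overlaps Adh7, had 17.5 to 19.0 CPM in the Axin2-positive group and 14.0 to 18.9 CPM in the Axin2-negative group, more than Adh7 itself, and its part in the Adh7 counts was not tested.

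**Figure D2:**
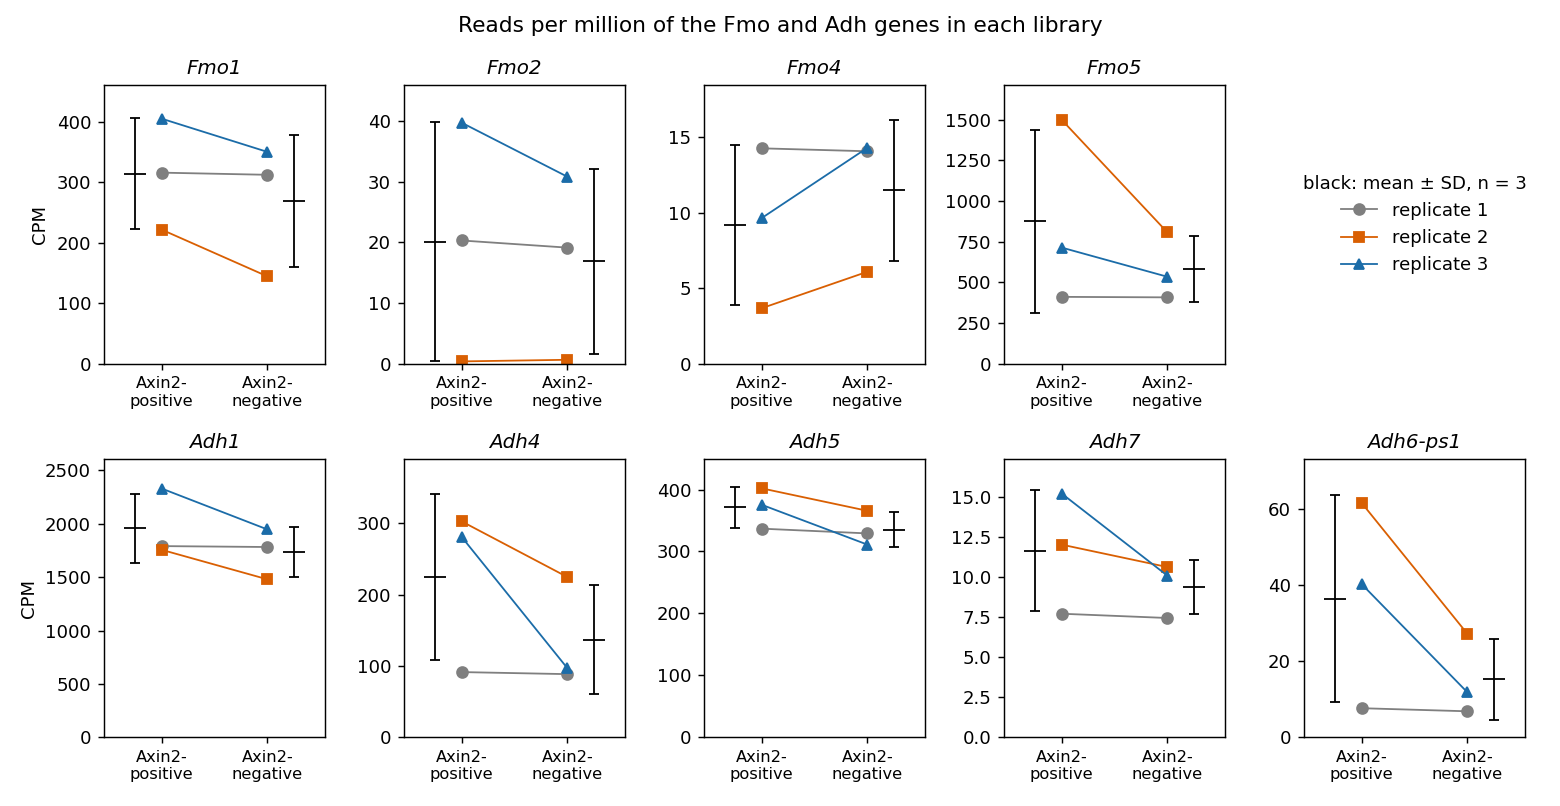
CPM of each gene in the 6 libraries, with Axin2-positive on the left and Axin2-negative on the right of each panel, lines joining libraries of the same replicate and black bars for the mean ± SD (n = 3). Adh6-ps1 and Adh4 are higher on the left in replicates 2 and 3, while the grey line of replicate 1 is nearly flat in every panel.

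In the Fmo family, Fmo5 was the most abundant gene by CPM and Fmo4 the one that ran the other way. Fmo5, an unusual member that inserts oxygen next to ketones and acts poorly on the amines typical of the family, had 411, 1498 and 713 CPM in the Axin2-positive libraries, against 408, 807 and 534 CPM in the Axin2-negative libraries. Its ratios were 1.01, 1.86 and 1.34, and the groups overlapped. Fmo1, the main enzyme for tertiary amines in mouse liver, had 316, 221 and 405 CPM in the Axin2-positive libraries, against 312, 144 and 350 CPM in the Axin2-negative libraries. It was higher in each Axin2-positive partner, with ratios of 1.01, 1.53 and 1.16. Log2 fold changes were 0.58 (SE 0.51) for Fmo5 and 0.22 (SE 0.39) for Fmo1, and neither passed the test. Without the library Axin2-positive 2 the value of Fmo5 was -0.05. The value of Fmo1 was -0.08 without the library Axin2-negative 2 and -0.0018 without the library Axin2-positive 3.

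Fmo4 had 14.3, 3.67 and 9.64 CPM in the Axin2-positive libraries, against 14.1, 6.08 and 14.3 CPM in the Axin2-negative libraries. It was lower in the Axin2-positive library of replicates 2 and 3, at 0.604 and 0.675 times the partner, and 1.01 times the partner in replicate 1. Its log2 fold change of -0.32 (SE 0.55) did not pass and was 0.06 without the library Axin2-positive 2. Fmo2, best known as the lung form, had 20.3, 0.380 and 39.7 CPM in the Axin2-positive libraries, against 19.1, 0.647 and 30.8 CPM in the Axin2-negative libraries. Its pairs pointed both ways, with ratios of 1.062, 0.587 and 1.29, and in replicate 2 it rested on 30 and 52 reads. The log2 fold change of 0.26 (SE 1.60) did not pass, and its sign turned with limma-voom (-0.07) and without the library Axin2-positive 3 (-0.70) or Axin2-negative 2 (-0.31).

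Differences between the replicate numbers were larger than those between the groups for all 4 Fmo genes. Within the Axin2-positive group the highest library held 104 times the CPM of the lowest for Fmo2, 3.88 times for Fmo4, 3.65 times for Fmo5 and 1.83 times for Fmo1. Within the Axin2-negative group these ratios were 47.6, 2.35, 1.98 and 2.42. This was not particular to the Fmo genes. Adh6-ps1 spanned 8.01 and 3.96 times within the Axin2-positive and Axin2-negative groups, above its largest ratio between partners of 3.39. Adh1 spanned 1.33 and 1.32 times, above its largest ratio of 1.20. For Adh4 and Adh7 the span was above the largest ratio in the Axin2-positive group only, and for Adh5 in neither group. The Axin2-positive spans take in the library Axin2-positive 1, which went against its label for Axin2. That library was the lowest of its group for Fmo5, Adh4, Adh5, Adh7 and Adh6-ps1. Libraries Axin2-positive 2 and 3 lay closer together for Adh6-ps1 (61.7 and 40.3 CPM) and Adh4 (303 and 281 CPM). They lay farther apart for Fmo5 (1498 and 713 CPM). Replicate 2 was the lowest in both groups for Fmo1, Fmo2 and Fmo4 and the highest in both for Fmo5. As a result, Fmo5 had 6.76 reads per Fmo1 read in the library Axin2-positive 2 and 5.59 in the library Axin2-negative 2, against 1.30 to 1.76 in the other 4 libraries. Replicate 2 is also the male replicate, and its endothelial markers summed to 1.93 CPM in the library Axin2-positive 2 and 5.43 CPM in the library Axin2-negative 2, against 50.3 to 74.6 CPM in the other 4 libraries. The part of these in the Fmo values was not tested.

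**Figure D3:**
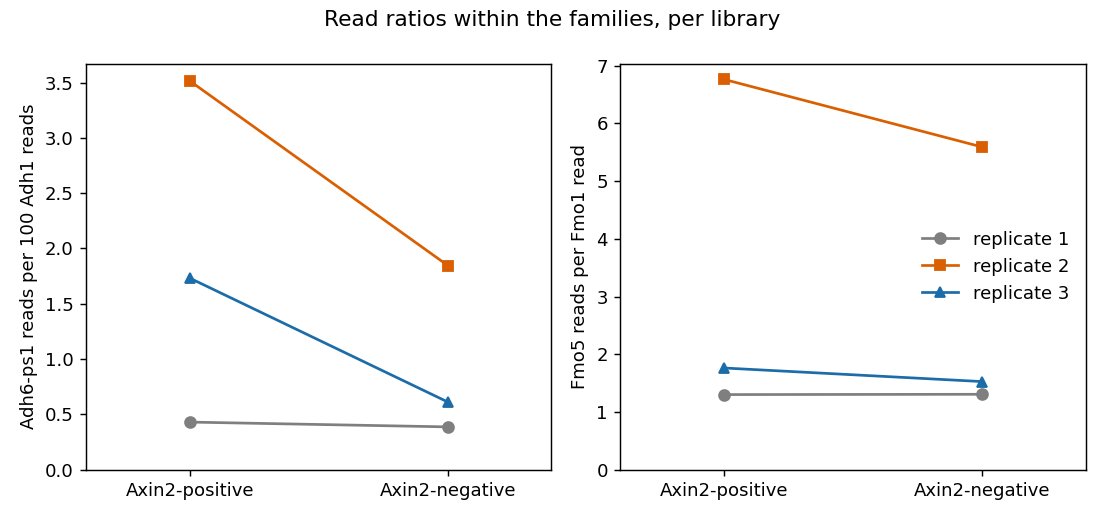
Reads of Adh6-ps1 per 100 reads of Adh1 (left) and reads of Fmo5 per read of Fmo1 (right) in each library, with Axin2-positive left of Axin2-negative and lines joining libraries of the same replicate. The Adh6-ps1 ratio is higher in the Axin2-positive library of each replicate, most in replicates 2 and 3, while the Fmo5 ratio separates replicate 2 from the others.

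The comparison asks how the sorted fractions differ in these enzymes. With every library included, the edgeR test called 0 of the 9 members and 0 of 12343 genes at an adjusted p under 0.05, which is 0% of the genes tested. At an unadjusted p under 0.05 it listed 0 members and 279 genes (2.26%). DESeq2 and limma-voom also called 0 members and 0 genes. With the replicate number as a block the calls stayed at 0, although 1132 genes (9.17%) then had an unadjusted p under 0.05, among them 1 member, Adh6-ps1 (log2 fold change 1.05, SE 0.31; edgeR with the block, unadjusted p = 0.0193, adjusted p = 0.450). The median log2 fold change of the members was 0.26 over 6 libraries, 8 of 9 of them above 0, against a median of -0.00 over all genes tested. This describes the members and is no test of them.

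Taken within each replicate, 7 of the 9 members were higher in the Axin2-positive library all 3 times, namely Fmo1, Fmo5, Adh1, Adh4, Adh5, Adh7 and Adh6-ps1. Of all 12343 genes, 19.5% were. All 3 differences were below 0 in 0 members and in 20.1% of all genes. Counting replicates 2 and 3 alone, the same 7 members were above 0 both times (35.3% of all genes), and Fmo4 was the 1 member below 0 both times (36.5% of all genes). The differences were small in replicate 1, where the members lay between 0.01 and 0.16 on the log2 scale with a median of 0.03. In replicate 2 they lay between -0.72 (Fmo4) and 1.18 (Adh6-ps1) with a median of 0.25, and in replicate 3 between -0.56 (Fmo4) and 1.76 (Adh6-ps1) with a median of 0.37. The medians of all genes were 0.00, -0.01 and -0.00 in the 3 replicates. No member had groups that did not overlap, which 3.44% of all genes did with the Axin2-positive group higher and 3.77% with it lower.

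**Figure D4:**
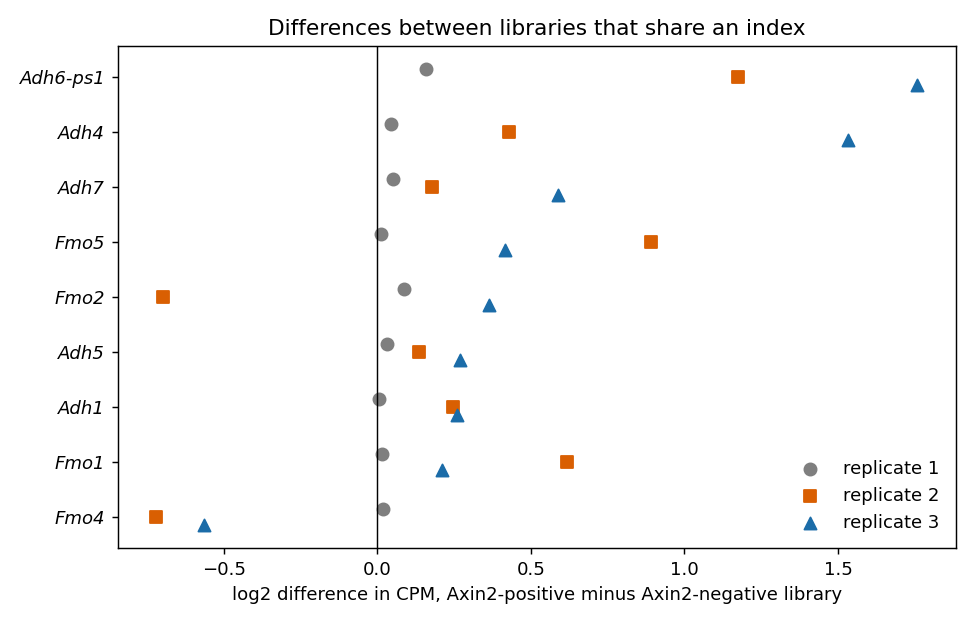
Log2 difference in CPM between the Axin2-positive and the Axin2-negative library of each replicate, with an offset of 0.05 CPM, 1 row per gene and 1 symbol per replicate. Points of replicate 1 lie within 0.16 of 0, Adh6-ps1 lies farthest to the right in replicates 2 and 3, and Fmo4 is below 0 in both.

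Leaving out the library labelled Axin2-positive 1 alone, edgeR called 0 members, where 0.00796% of genes were called higher and 0.0398% lower (0.0478% in either direction). A further fit, blocked by replicate number, used replicates 2 and 3 and left 1 residual degree of freedom. The pair of replicate 1 was left out after it had been seen to show little difference, so calls of this fit are no independent evidence. It called 1 member higher in the Axin2-positive libraries, where 3.43% of 12385 genes were called higher, and 1 member lower, where 4.01% were called lower. The member called higher was Adh6-ps1 (log2 fold change 1.47, SE 0.16; edgeR adjusted p = 0.0115), and the member called lower was Fmo4 (-0.64, SE 0.13; edgeR adjusted p = 0.0490). Fmo5 (0.66, SE 0.14; edgeR adjusted p = 0.0598) and Adh4 (0.98, SE 0.27; edgeR adjusted p = 0.0931) did not pass. Tested against a fold of 1.5, 1 member was called, Adh6-ps1 (edgeR adjusted p = 0.0359), where 0.791% of genes were called higher, 0.888% lower and 1.68% in either direction. Without the pair of replicate 2, or without that of replicate 3, 0 members were called.

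The authors' deposited table gives 1 FPKM value per transcript and group, made by Cuffdiff. It lists 11 transcripts of the members. In the authors' deposited table Adh6-ps1 was the 1 gene among them with a q under 0.05, at 10.8 FPKM in the Axin2-positive group and 5.08 FPKM in the Axin2-negative group (Cuffdiff p = 5e-05, q = 0.00961). That p is the smallest in the authors' deposited table and is shared by 72 transcripts, and 97 of 13843 transcripts with the status OK (0.701%) had a q under 0.05. Adh4 followed in the authors' deposited table with 149 FPKM in the Axin2-positive group and 98.3 FPKM in the Axin2-negative group (Cuffdiff p = 0.0316, q = 0.9995). For Fmo2 the authors' deposited table gave 6.04 FPKM in the Axin2-positive group and 4.12 FPKM in the Axin2-negative group (Cuffdiff p = 0.0513). The 3 listed transcripts of Fmo5 summed to 143 FPKM in the Axin2-positive group and 111 FPKM in the Axin2-negative group in the authors' deposited table, and none had a p below 0.4085. The pair of groups had the same order in the authors' deposited table as in the counts for all 9 members, with Fmo4 at 4.32 FPKM in the Axin2-positive group and 4.63 FPKM in the Axin2-negative group.

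Other genes of the same reactions were read from fixed lists. Over all 6 libraries edgeR called 0 members of each list. Of 8 tested genes that oxidise ethanol and acetaldehyde, 6 had a log2 fold change above 0, with a median of 0.20. The microsomal ethanol oxidase gene Cyp2e1 had 1697, 11162 and 11166 CPM in the Axin2-positive libraries, against 1692, 2923 and 4033 CPM in the Axin2-negative libraries. Mitochondrial Aldh2, which clears acetaldehyde, had 1919, 2411 and 2329 CPM in the Axin2-positive libraries, against 1977, 1945 and 1861 CPM in the Axin2-negative libraries. Cat, the peroxisomal catalase gene, had 3602, 3949 and 3239 CPM in the Axin2-positive libraries, against 3566, 4297 and 3283 CPM in the Axin2-negative libraries. Cyp2e1 was thus high in the libraries Axin2-positive 2 and 3, Aldh2 slightly so, and Cat not. In the fit of 2 pairs, whose choice followed the data, 3 of the 8 were called higher and 1 lower, where 3.43% of all genes were called higher and 4.01% lower. The same limit and shares apply to the calls of this fit in the lists that follow.

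The list of retinol and retinal handling had 27 tested genes, 11 with a log2 fold change above 0, and a median of -0.06. Aldh1a1, the cytosolic enzyme that turns retinal into retinoic acid, had 667, 2885 and 1818 CPM in the Axin2-positive libraries, against 668, 1077 and 578 CPM in the Axin2-negative libraries. In the same list the plasma carriers varied less, Ttr with 7211, 7904 and 6023 CPM in the Axin2-positive libraries, against 7442, 6040 and 5153 CPM in the Axin2-negative libraries. The fit of 2 pairs called 5 of the 27 higher, among them Aldh1a1, and 1 lower, beside the 3.43% and 4.01% of all genes. The 14 genes around glutathione and formaldehyde, the partners of Adh5, had a median of 0.06, with 7 above 0 and 7 below. The fit of 2 pairs called 1 of them higher. For choline and methylamine metabolism, which supplies Fmo substrates, the 15 tested genes had a median of -0.00, and the fit of 2 pairs called 2 higher. The 22 tested oxidases and reductases that use flavin or molybdenum had a median of 0.06, with 3 called higher and 2 lower in the fit of 2 pairs. Over all genes the medians were -0.00 in both fits.

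The genes whose log2 CPM followed each member most closely over the 6 libraries were found by Pearson's correlation. The libraries fall into 3 pairs and 12343 genes were compared, so high values arise easily and carry no p. For Adh6-ps1 these were Slc25a37 and Farp2 (r = 0.996 and 0.995), and for Adh4 they were Cep110 and Cltc (both r = 0.993). Fmo5 was followed by Pelo and 2700078E11Rik (both r = 0.997), and Fmo4 by Smtnl2 and Cables1 (r = 0.9999 and 0.998), of which Smtnl2 reached at most 0.524 CPM. Fmo1 was closest to Acot4 and Lin7a (both r = 0.998), and Fmo2 to Amotl1 and Tox (both r = 0.998). Adh1 was closest to Tgm1 and Cyp2a22 (both r = 0.996), Adh5 to Wdr91 and Shroom2 (r = 0.995 and 0.993), and Adh7 to Plcg1 and Lifr (r = 0.996 and 0.992).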

How the data were processed

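GFP-positive and GFP-negative hepatocyte RNA was sequenced after stranded mRNA library preparation, per the labels' protocols. Gene-level read counts were deposited as whole numbers for 6 libraries and 17275 genes. TopHat2 2.0.11 aligned the reads to mm10, per the submitters' processing notes; the counter, and whether it used strand, is not stated there. FPKM values by transcript, with 1 value per group, come from the authors' Cuffdiff 2.2.2 run, with its p-value and q-value columns as deposited.

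The main test was the quasi-likelihood F test of edgeR 4.0.16 (R 4.3.3) on the counts of all genes passing filterByExpr, TMM-scaled, with group as the single term, Benjamini-Hochberg adjustment and a threshold of 0.05. An SE is the absolute log2 fold change over the square root of F. The code was tested on simulated data without a replicate effect, so how the fits behave with paired libraries was not tested. Same-numbered libraries deviated together from their group means (correlations 0.68, 0.82 and 0.75), so the shared index was taken to pair them. Alternatives were DESeq2 1.42.0, limma-voom (limma 3.58.1), other scalings and filters, a stricter threshold, a replicate block and fits lacking 1 library each. Fits without both libraries of a replicate, and against a fold of 1.5, were added after seeing the data. Members and gene lists were chosen with earlier results of these data known. Named genes were the members, the most abundant genes of a list (up to 3), genes checking the sort, and the 2 genes correlating best with each member. Sex-linked and overlapping antisense genes, and which listed genes to show, were decided after their values were seen.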

Additional observations from a re-analysis of the deposited data

How the results depend on the processing

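The count of called members was 0 with DESeq2, limma-voom, RLE or upper quartile scaling, scaling by library totals alone, the other filters, a threshold of 0.01, the replicate block and without any single library. Called genes numbered 0 too, except for a range of 0 to 6 when 1 library was left out, with 6 (1 higher, 5 lower) without the library Axin2-positive 1. The blocked fit on replicates 2 and 3 called 922 genes and 2 members, and 208 genes and 1 member against a fold of 1.5. The replicate block over all libraries gave 0 called genes and changed no call. Its log2 fold changes were 0.28 (SE 0.14) for Fmo1, 0.05 (SE 0.19) for Fmo2, -0.42 (SE 0.17) for Fmo4 and 0.44 (SE 0.19) for Fmo5. They were 0.17 (SE 0.11) for Adh1, 0.66 (SE 0.30) for Adh4 and 0.15 (SE 0.099) for Adh5. Adh7 had 0.27 (SE 0.13) and Adh6-ps1 1.05 (SE 0.31). Each SE was smaller than that of the same member in the main fit, which has no block. Fmo2 turned to -0.069 with limma-voom and to -0.25 in the blocked fit on replicates 1 and 2. Leaving out 1 library at a time, log2 fold changes ranged from -0.076 to 0.46 for Fmo1, -0.70 to 1.03 for Fmo2, -0.79 to 0.057 for Fmo4, -0.054 to 0.92 for Fmo5, 0.03 to 0.27 for Adh1, 0.44 to 1.28 for Adh4, 0.09 to 0.21 for Adh5, 0.07 to 0.53 for Adh7 and 0.64 to 1.96 for Adh6-ps1. The cause of these turns was not tested. With 3 libraries a group and no block, precision is limited by the spread between libraries, part of which follows the replicate number. For Fmo2 in replicate 2 it is also limited by read number.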
